A study of Zea mays with 8 samples.

Results

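A group of 53 maize genes was examined that were abundant after inoculation with a spore suspension labelled SLB and much lower, but detected, in mock-treated leaves. The genes were chosen by their measured levels in the same 8 libraries that are described here. A gene entered the group if its mean over the 4 SLB libraries was at least 300 FPKM (fragments scaled to the length of the transcript and to the mapped fragments of the library) and its mean over the 4 control libraries was above 0 and at most 1/16 of the SLB mean. Of 44135 genes in the table, 65 met these conditions. Zm00001d018738 was left out by name. A further 11 genes were left out because a gene whose identifier number is 1 lower or 1 higher also had a log2 ratio of the group means, each with 1 FPKM added, of at least 3. The difference between SLB and control libraries is therefore how the 53 genes were found, and it is described below without a test.

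The SLB group was the emerging leaf 4 of maize (Zea mays) cultivar Golden Queen, from plants 14 d old, treated with a spore suspension and sampled at 24 h. The control group was the same leaf of plants of the same age and cultivar given 0.1% Tween 20 in water, also at 24 h. Each group had 4 libraries of stranded mRNA sequencing. SLB is read here as southern leaf blight, which the fungus Cochliobolus heterostrophus causes. The labels do not say whether replicates came from separate plants, so the spread between libraries may be technical. The plants were Golden Queen, while the submitters' processing notes name the B73 RefGen_v4 genome build.

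Maize leaves answer fungal attack by switching on large sets of genes that are nearly silent in healthy tissue. Known defence products of maize, not all of them of leaves, are terpenoid phytoalexins such as zealexins, kauralexins and dolabralexins, and benzoxazinoids. Pathogenesis-related proteins that act on fungal walls or membranes are others. The series title places these libraries in a study of maize diterpenoid defences. Which of the 53 genes belong to any of these pathways cannot be stated here, because the RefSeq gene table used, which is on a later B73 assembly, matched 0 of the 53 identifiers. The genes are named by their B73 RefGen_v4 identifiers only, and no function, position or sequence is given. For the same reason the leaf identity of the libraries was not checked against marker genes.

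The libraries of the SLB group were unequal, and replicate 4 stood apart from the others. Summed FPKM were 706734 to 755209 in SLB libraries and 1415306 to 2118483 in controls. The 50 genes with the highest control means held 5.38%, 4.33%, 4.94% and 7.32% of the summed FPKM in SLB replicates 1 to 4, against 57.1%, 52.9%, 48.6% and 53.9% in control replicates 1 to 4. Replicate 4 thus had the highest share of control-abundant transcripts among the SLB libraries, and it also had the lowest levels of most of the 53 genes. Values without it are given for the share of summed FPKM, the median SLB spread and the number of genes meeting the rule. Most other values, such as the plain sums and the ratios of means, include it. The exact depth of the libraries is unknown, so no counting interval can be given. All changes are in transcripts of whole leaf tissue, where more cells expressing a gene and more RNA per cell cannot be told apart.

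The 53 genes made up a sizeable part of the SLB transcriptome by summed FPKM and a trace of the control transcriptome. They held 11.3%, 11.8%, 10.5% and 7.25% of the summed FPKM in SLB replicates 1 to 4, against 0.0479%, 0.0598%, 0.0649% and 0.0589% in control replicates 1 to 4. The means were 10.2% ± 2.04 in SLB libraries and 0.0579% ± 0.00715 in controls (SD, n = 4 each), and without SLB replicate 4 the SLB share was 11.2% ± 0.651 (SD, n = 3). As plain sums, the genes held 74600 ± 16160 FPKM in SLB libraries and 1010 ± 65.4 FPKM in controls (SD, n = 4 each), still a relative measure. Among the 50 most abundant genes of each library, 15, 14, 14 and 10 belonged to the group in SLB replicates 1 to 4, while the 500 most abundant genes of each control library held 0 of them. Their ranks by mean level ran over 2 to 295, with a median of 118, in SLB libraries and over 1172 to 25822, with a median of 7775, in controls.

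**Figure D1:**
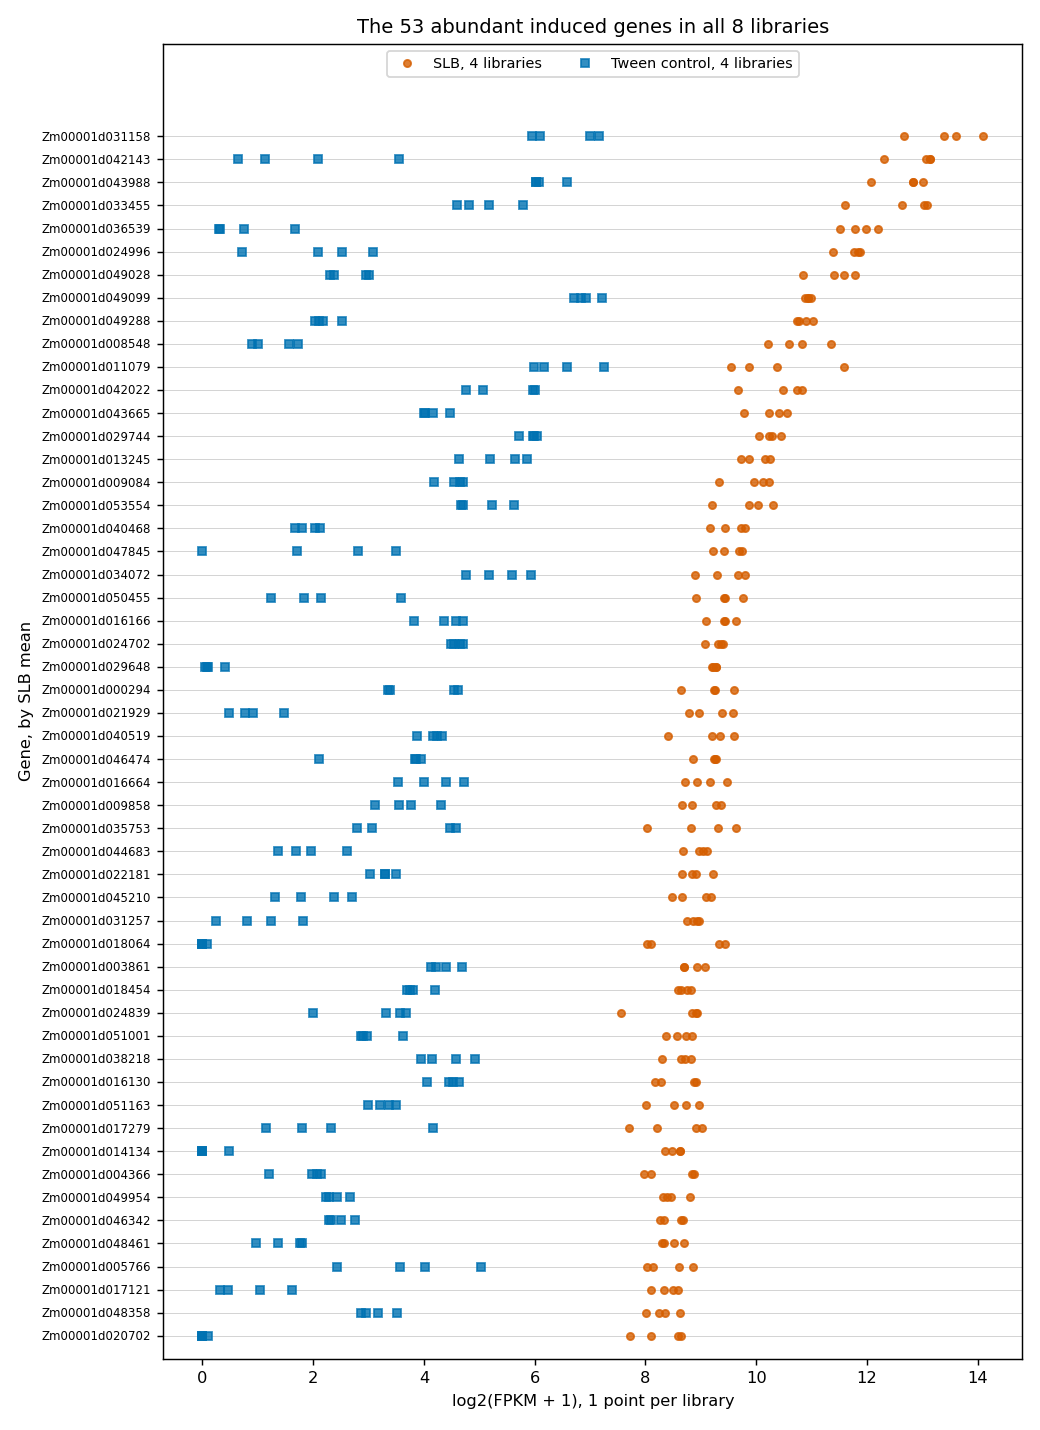
Level of each of the 53 genes in every library, as log2(FPKM + 1), with 1 orange circle per SLB library and 1 blue square per Tween control library; genes run from the highest SLB mean at the top to the lowest at the bottom. The SLB and control points of a gene do not overlap in any of the 53 rows. Control points run from 0 to 151 FPKM and SLB points from 189 to 17570 FPKM.

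The separation of the groups was complete, as the choice of the genes nearly forces. The lowest SLB library exceeded the highest control library in 53 of 53 genes, where 53.3% of the 19407 tested genes had every SLB library above every control. All 53 passed the filter of at least 1 FPKM in at least 4 libraries, which their SLB values alone guarantee, and 40 would have passed it on their control libraries alone. In limma all 53 were called higher at an adjusted p of 0.05, where 56% of tested genes were. Nothing is read from these counts, because the contrast itself chose the genes. The lowest SLB value was 4.95 times the highest control value in Zm00001d011079, where the groups came closest, and the median of that ratio over the 53 genes was 39.5.

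The top of the group was steep, with 6 genes at 3000 FPKM or more, 9 between 1000 and 3000, 16 between 500 and 1000 and 22 between 300 and 500. The 4 most abundant genes alone supplied 43.6% ± 5.26 of the group's summed FPKM in SLB libraries and 20.7% ± 2.43 in controls (SD, n = 4 each). Zm00001d031158 was the second most abundant gene of the whole SLB transcriptome, with 12482, 17570.2, 10671 and 6511 FPKM in SLB replicates 1 to 4, against 127, 60.7, 67.8 and 141 FPKM in control replicates 1 to 4. It was lowest in replicate 4 among the SLB libraries, and it was also among the genes of the group with the highest control levels. Zm00001d042143 had 9019.6, 9046, 8577 and 5044 FPKM in the SLB libraries, against 1.20, 10.8, 3.27 and 0.559 FPKM in the controls. Its SLB replicates 1 to 3 lay close together and replicate 4 far below them, while its controls spread 19.2-fold between the lowest and the highest library.

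Zm00001d043988 and Zm00001d033455 completed the leading 4. Zm00001d043988 had 8299, 7244, 7294 and 4278 FPKM in the SLB libraries, against 66.5, 95.4, 63.9 and 64.2 FPKM in the controls. Zm00001d033455 had 8378, 8688, 6333 and 3098 FPKM in the SLB libraries, against 35.3, 54.0, 23.1 and 27.2 FPKM in the controls. Both were lowest in SLB replicate 4, Zm00001d033455 by more, and both were clearly present in every control. Their ratios of SLB mean to control mean were 93.5 and 189.9, set beside 119 for Zm00001d031158 and 2007 for Zm00001d042143, so that the 4 most abundant genes differed among themselves mainly in their control levels.

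The next genes by SLB level had low control levels, with means of 0.831, 4.02 and 5.49 FPKM in the order given below. Zm00001d036539 had 4707, 3531, 4055 and 2927 FPKM in the SLB libraries, against 0.242, 2.17, 0.224 and 0.683 FPKM in the controls. Zm00001d024996 had 3737, 3645, 3484 and 2689 FPKM in the SLB libraries, against 4.72, 7.47, 3.26 and 0.644 FPKM in the controls. Zm00001d049028 had 3508, 2693, 3067 and 1828 FPKM in the SLB libraries, against 4.17, 6.75, 7.08 and 3.96 FPKM in the controls. In each of these genes the SLB libraries were within a factor of 2 of each other with replicate 4 the lowest, and no control exceeded 7.47 FPKM. The ratios of the means were 4580.1, 842 and 505.

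The last genes of the leading 10 differed from each other in both groups. Zm00001d049099 had 1954, 2043, 1949 and 1877 FPKM in the SLB libraries, against 103, 114, 120.2 and 147 FPKM in the controls. It had the highest control mean of all 53 genes and one of the smallest spreads between SLB libraries. Zm00001d049288 had 2088, 1916, 1756 and 1704 FPKM in the SLB libraries, against 3.12, 3.33, 3.52 and 4.76 FPKM in the controls, so that all 8 libraries were even within their group. Zm00001d008548 had 1545, 2608, 1189 and 1813 FPKM in the SLB libraries, against 0.860, 1.95, 0.999 and 2.32 FPKM in the controls. Here the SLB libraries spread 2.19-fold, with replicate 2 the highest and replicate 3 the lowest.

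**Figure D2:**
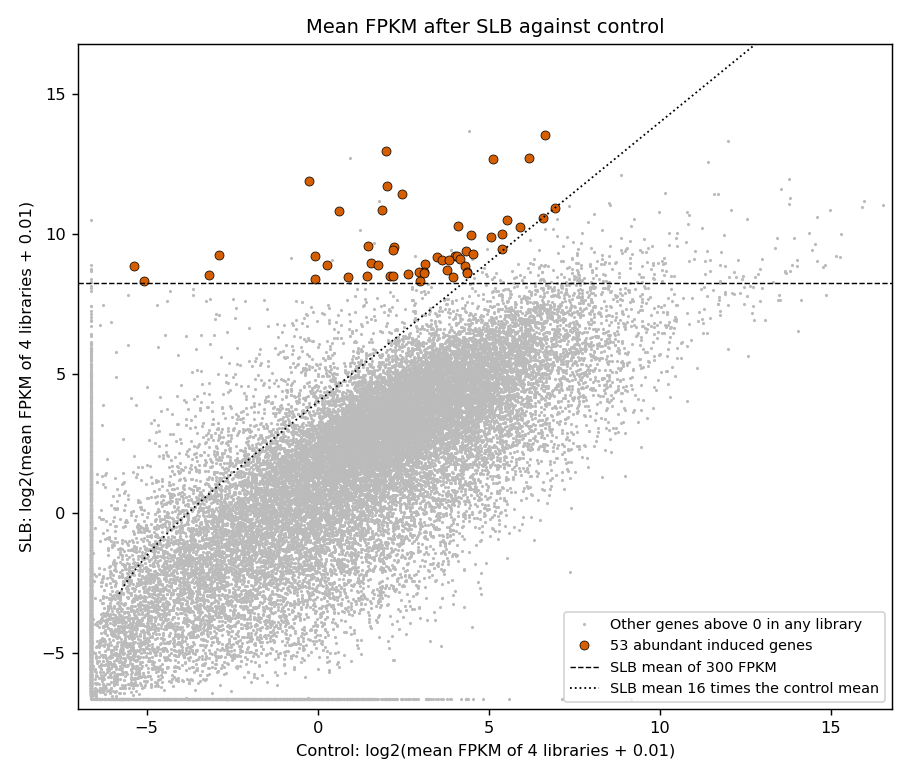
Mean level in SLB libraries (y axis) against mean level in control libraries (x axis), both as log2(mean FPKM + 0.01) over 4 libraries, with the 53 genes in orange and all other genes above 0 in any library in grey; the dashed line marks an SLB mean of 300 FPKM and the dotted line an SLB mean of 16 times the control mean. The 53 genes lie above both lines and run from control means of 0.0143 to 121 FPKM; the grey points between them are genes left out for an induced neighbour or by name.

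In fold terms, control means spanned a wider range than SLB means, which the rule holds at 300 FPKM or more. SLB means ran from 317 to 11808 FPKM with a median of 586, while control means ran from 0.0143 to 121 FPKM with a median of 8.67. Control means were under 1 FPKM in 7 genes, from 1 to 10 in 21, from 10 to 50 in 20 and 50 or more in 5. The median SLB means of these 4 classes were 467, 469, 591 and 1956 FPKM. Across the 53 genes the SLB and control means had a Spearman correlation of 0.38, a description over genes that share the same libraries. The requirement of a ratio of at least 16 by itself keeps genes of high control level out unless their SLB level is high.

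At the high end of control expression stood 5 genes. Besides Zm00001d049099, Zm00001d031158 and Zm00001d043988 these were Zm00001d011079 and Zm00001d029744. Zm00001d011079 had 1334, 3073, 749 and 938 FPKM in the SLB libraries, against 151, 70.8, 62.4 and 95.4 FPKM in the controls. The value in SLB replicate 2 exceeded the other 3 by at least 2-fold, and the spread of 4.10-fold between SLB libraries was the widest of the 53 genes. Zm00001d029744 had 1403, 1203, 1246 and 1053 FPKM in the SLB libraries, against 51.6, 62.7, 61.9 and 64.5 FPKM in the controls, with both groups even and a ratio of means of 20.4.

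At the low end, 3 genes were listed above 0 in a single control library. Zm00001d018064 had 691, 274, 645 and 260.0 FPKM in the SLB libraries, against 0.0570, 0, 0 and 0 FPKM in the controls. Zm00001d020702 had 399, 274, 386 and 211 FPKM in the SLB libraries, against 0, 0, 0.0780 and 0 FPKM in the controls. Zm00001d014134 had 395, 324, 357 and 394 FPKM in the SLB libraries, against 0.402, 0, 0 and 0 FPKM in the controls. A value of 0 in this table may be a failed estimate, so these genes are described as listed at 0 in the other controls and no ratio is given for them. All were abundant in every SLB library, with replicates 1 and 3 above 2 and 4 in the first pair and a narrow range in Zm00001d014134.

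A gene of another kind had 1 control at 0. Zm00001d047845 had 855, 819, 681 and 594 FPKM in the SLB libraries, against 6.01, 2.28, 0 and 10.2 FPKM in the controls, so that control replicate 3 was listed at 0 while control replicate 4 had about 10 FPKM. The other 49 genes were above 0 in all 4 controls, and 20 of them had at least 10 FPKM in every control. Only 4 genes had no control library at 1 FPKM or more, namely Zm00001d029648, Zm00001d018064, Zm00001d014134 and Zm00001d020702.

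Zm00001d029648 combined the steadiest SLB level with one of the lowest control levels. It had 586, 596, 619.6 and 619 FPKM in the SLB libraries, against 0.0610, 0.0720, 0.0390 and 0.326 FPKM in the controls. The SLB libraries differed by 1.06-fold, the least of the 53 genes, and replicate 4 was as high as the others. Control replicate 4 lay above the other controls, at a level where FPKM say little. Its ratio of means, 4861 over a control mean of 0.1245 FPKM, was the highest among the genes with all controls above 0. That ratio was 2656 with median-ratio scaling and 11987 with equal totals.

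Over the 49 genes with all controls above 0, the ratio of SLB mean to control mean ran from 16.04 to 4861, with a median of 51.7 and quartiles of 30.8 and 189.9. It was at least 64 in 22 of them, at least 256 in 11 and at least 1024 in 4, which were Zm00001d029648, Zm00001d036539, Zm00001d042143 and Zm00001d008548. The median log2 fold change, SLB over control on log2(FPKM + 1), over the 53 genes was 6.01, beside 0.69 over all tested genes. Dividing each library by a median-ratio factor lowered the ratios, so that 43 of the 53 genes kept a ratio of at least 16, while equal totals raised them and left 53 at or above 16. The members' log2 fold changes then had medians of 5.25 and 7.17, beside medians over tested genes of -0.02 and 1.62.

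Near the limits of the rule the values changed gradually. The 3 genes just inside the SLB limit were Zm00001d020702, Zm00001d048358 and Zm00001d017121, with SLB means of 317, 319 and 336 FPKM. The 3 just outside were Zm00001d029359, Zm00001d000001 and Zm00001d050864, at 299.5, 294 and 277.5 FPKM. Of these, Zm00001d029359 had 361, 289, 361 and 187 FPKM in the SLB libraries, against 0.217, 0.322, 0.163 and 0.221 FPKM in the controls, a pattern like that of the members. On the ratio limit, Zm00001d011079, Zm00001d049099 and Zm00001d034072 lay just inside at 16.04, 16.14 and 16.62, and Zm00001d002847, Zm00001d034859 and Zm00001d003059 just outside at 15.3, 14.5 and 14.3. Below the control limit were 6 genes with an SLB mean of at least 300 FPKM and 0 in all controls, led by Zm00001d003190 with 1685, 1681, 1264 and 1121 FPKM in SLB replicates 1 to 4. In all, 312 genes had an SLB mean of at least 300 FPKM, and 102 of the 259 that were not members had a control mean above their SLB mean.

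Genes beside the limits also had no overlap between SLB and control libraries, as their ratios nearly require. Just inside the SLB limit, Zm00001d048358 had 303, 324, 392 and 257 FPKM in the SLB libraries, against 6.29, 6.74, 10.5 and 7.99 FPKM in the controls. Just outside it, Zm00001d000001 had 275, 416, 252 and 233 FPKM in the SLB libraries, against 9.79, 13.5, 7.30 and 6.91 FPKM in the controls, with SLB replicate 2 the highest. Zm00001d050864 had 330.0, 253, 331 and 196 FPKM in the SLB libraries, against 4.29, 8.12, 5.21 and 9.17 FPKM in the controls. In all of these SLB replicate 4 was the lowest SLB library and no control came near an SLB value. Just outside the ratio limit, Zm00001d002847 had 489.8, 472, 469 and 345 FPKM in the SLB libraries, against 27.4, 32.2, 28.2 and 28.5 FPKM in the controls. Zm00001d034859 had 423, 407, 366 and 405 FPKM in the SLB libraries, against 28.8, 33.6, 22.3 and 25.9 FPKM in the controls. Zm00001d003059 had 382, 292, 445 and 247 FPKM in the SLB libraries, against 24.5, 20.9, 27.3 and 22.7 FPKM in the controls. SLB replicate 4 was the lowest SLB library in Zm00001d002847 and Zm00001d003059, and SLB replicate 3 in Zm00001d034859. Of the genes at 0 in all controls, Zm00001d011032 had 609, 668, 248 and 381 FPKM in SLB replicates 1 to 4. Zm00001d028165 had 444, 449, 526 and 284 FPKM in SLB replicates 1 to 4, and the lowest library was replicate 3 in Zm00001d011032 and replicate 4 in Zm00001d028165.

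Differences between the 4 SLB libraries were not used in choosing the genes, and they ran in one direction. SLB replicate 4 was the lowest SLB library for 43 of the 53 genes and the highest for 0. Over all tested genes above 0 in the 4 SLB libraries, replicate 4 was the lowest in 23.1% and the highest in 39.2%. SLB replicate 1 was the highest for 24 of the 53 genes, replicate 3 for 16 and replicate 2 for 13. After median-ratio scaling replicate 4 was the lowest for 45 of the 53 genes and for 34.8% of tested genes.

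In size, the deviation of SLB replicate 4 was moderate. Its level was 0.714 times the mean of replicates 1 to 3 in the median gene, with a range of 0.397 to 1.16, and it was at most 0.75 times that mean in 29 of the 53 genes. The median deviation from the mean log2 level of the 4 SLB libraries was 0.21, 0.04, 0.15 and -0.36 for the 53 genes in replicates 1 to 4. Over all tested genes these medians were -0.047, -0.0038, -0.0016 and 0.059. Zm00001d033455 and Zm00001d024839 had the lowest values of that ratio, 0.397 and 0.398, and Zm00001d024839 had 456, 484, 482 and 189 FPKM in the SLB libraries, against 10.9, 11.8, 8.92 and 2.99 FPKM in the controls. Replicate 4 was the lowest library in both groups of this gene, and its SLB replicates 1 to 3 lay close together.

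The low replicate 4 was shared with other induced genes. Among 990 other tested genes with a log2 ratio of group means of at least 3, replicate 4 was the lowest SLB library in 66.4% and its median deviation was -0.27. Among 862 tested genes with a log2 ratio of at most -3, it was the highest SLB library in 70.2% of the 702 above 0 in all SLB libraries, with a median deviation of 0.55. The other 259 genes with an SLB mean of at least 300 FPKM had replicate 4 lowest in 35.5% and highest in 39.8%. Over all tested genes the median deviation of replicate 4 was small and positive, as given above. These sets were formed from means that include the library. What part the higher share of control-abundant transcripts in replicate 4 had in its low values was not tested.

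**Figure D3:**
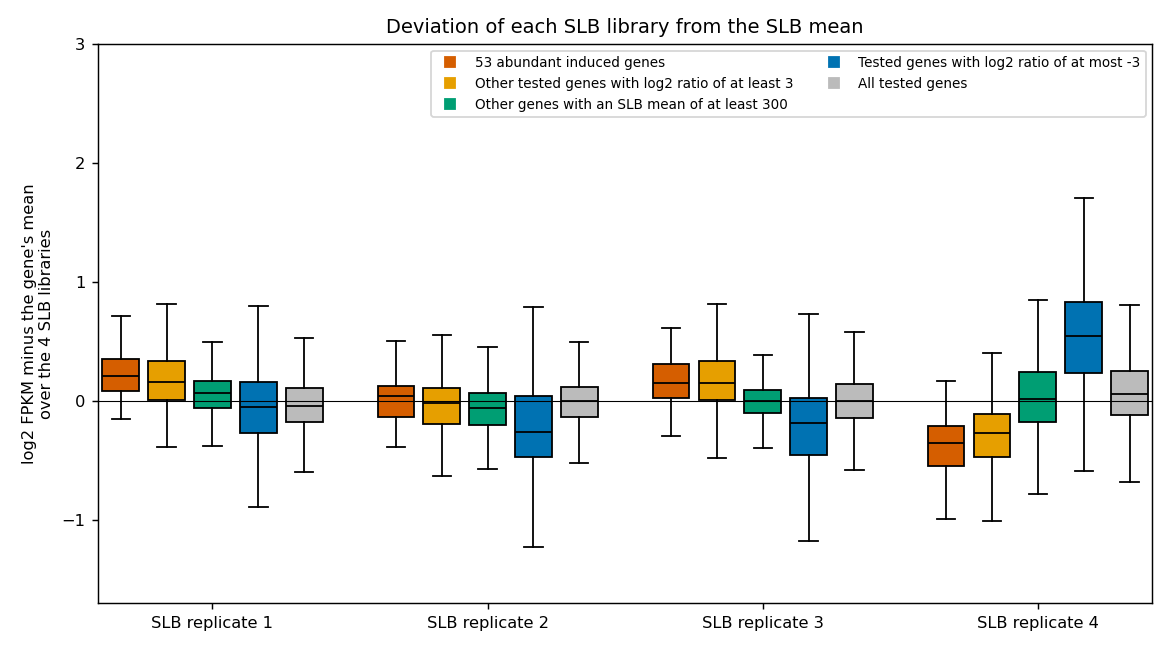
Deviation of log2 FPKM in each SLB library (x axis) from the mean log2 FPKM of the gene over the 4 SLB libraries (y axis), for the 53 genes, 990 other genes with a log2 ratio of at least 3, 259 other genes with an SLB mean of at least 300 FPKM, 862 genes with a log2 ratio of at most -3 and all tested genes; only genes above 0 in the 4 libraries are drawn, boxes span the quartiles with the median as a line, whiskers reach the last value within 1.5 times the box, and outlying points are not drawn. In SLB replicate 4 the 53 genes have a median of -0.36, all tested genes 0.06 and the strongly lowered genes 0.55.

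Not every gene followed that pattern. SLB replicate 4 was not the lowest for 10 genes. Replicate 3 was lowest in Zm00001d008548, Zm00001d011079, Zm00001d046474, Zm00001d031257 and Zm00001d046342, and replicate 2 in Zm00001d003861, Zm00001d016130, Zm00001d014134 and Zm00001d005766. In Zm00001d029648 replicate 1 was lowest by a small margin. Zm00001d046342 had 408, 324, 304 and 401 FPKM in the SLB libraries, against 3.87, 4.69, 5.78 and 4.00 FPKM in the controls, with replicates 1 and 4 together above 2 and 3. Zm00001d046474 had 601, 621, 466 and 612 FPKM in the SLB libraries, against 13.3, 13.4, 3.32 and 14.5 FPKM in the controls. Replicate 3 was the low library in both groups of this gene, although SLB replicate 3 and control replicate 3 share only a number.

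In 27 of the 53 genes both SLB replicates 1 and 3 lay above both replicates 2 and 4, an arrangement seen in 19.6% of all tested genes and in 542 of the 990 other induced genes. Zm00001d018064 above is one example. Zm00001d004366 had 459.9, 273, 468 and 251 FPKM in the SLB libraries, against 2.93, 3.42, 3.17 and 1.31 FPKM in the controls. Zm00001d017279 had 483, 295, 519 and 207 FPKM in the SLB libraries, against 4.00, 17.0, 2.48 and 1.22 FPKM in the controls. Zm00001d035753 had 789, 449, 635 and 258 FPKM in the SLB libraries, against 21.1, 22.9, 5.95 and 7.33 FPKM in the controls, with a spread of 3.05-fold that was second only to that of Zm00001d011079. In these genes replicates 1 and 3 formed a pair at a high level and replicate 4 was lowest each time. Because the arrangement was found after the values had been seen, it is only described.

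By contrast, 13 genes peaked in SLB replicate 2. Among them were Zm00001d031158, Zm00001d042143, Zm00001d033455, Zm00001d049099 and Zm00001d008548 of the leading 10. Replicate 2 also stood far above the others in Zm00001d011079. Zm00001d031257 also belonged here, with 461, 498, 430.4 and 486 FPKM in the SLB libraries, against 0.744, 2.52, 1.35 and 0.188 FPKM in the controls. Its SLB libraries differed by only 1.16-fold, while its controls differed 13.4-fold. Zm00001d049954 had 335, 444, 349 and 319 FPKM in the SLB libraries, against 3.67, 3.88, 4.42 and 5.36 FPKM in the controls. Zm00001d048461 had 323, 412, 366 and 314 FPKM in the SLB libraries, against 0.948, 1.58, 2.39 and 2.48 FPKM in the controls. In this last pair replicate 2 was the highest and replicate 4 the lowest SLB library, and all controls were under 6 FPKM.

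The spread between SLB libraries was compared with that of other genes as a description. The median ratio of the highest to the lowest SLB library was 1.62 over the 53 genes, 1.54 over the 990 other induced genes, 1.36 over the other 259 abundant genes and 1.42 over all tested genes above 0. Without SLB replicate 4 the median ratio over the 53 genes was 1.29. The ratio exceeded 2 in 11 genes and was under 1.25 in 6. The median coefficient of variation (CV, the SD as a percentage of the mean) over the 53 genes was 22.7% in SLB libraries and 37.7% in controls, and 43 of the 53 genes varied more between controls than between SLB libraries. Over all tested genes, 68.6% did.

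**Figure D4:**
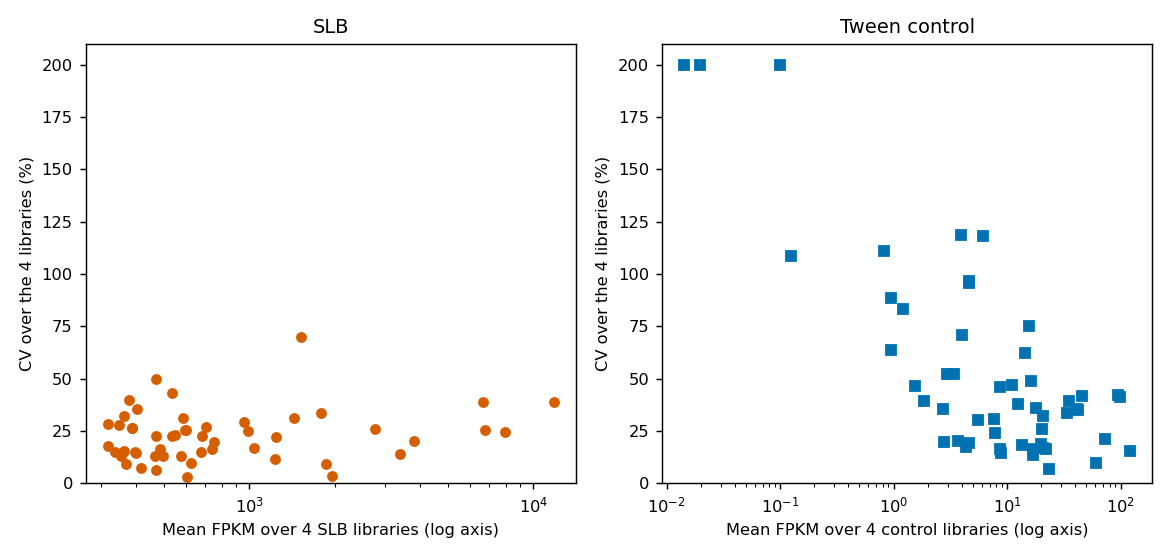
Coefficient of variation over 4 libraries (y axis, in percent) against mean FPKM over the same libraries (x axis, log axis) for each of the 53 genes, in SLB libraries (left panel) and Tween controls (right panel), 1 point per gene. In SLB libraries the spread stays under 70% at all levels, while in controls the 3 genes detected in a single library sit at 200% and the 5 genes with a control mean of at least 50 FPKM lie under 50%.

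Control variation was widest among the genes with low control levels, and across the 53 genes the control mean and control CV had a Spearman correlation of -0.56. The highest control exceeded the lowest by more than 8-fold in 8 of the 49 genes above 0 in every control. Among tested genes above 0 in every control, 1.62% did. Control means of these 8 ran from 0.1245 to 6.17 FPKM, and the tested genes were not matched for control level. Whether the difference in share follows from control level was not tested. Of these 8, control replicate 2 was the highest library in 6, which were Zm00001d042143, Zm00001d036539, Zm00001d024996, Zm00001d050455, Zm00001d031257 and Zm00001d017279. Among the 291 tested genes with as wide a control spread, control replicate 2 was the highest in 21.3%. At a spread of more than 4-fold, control replicate 2 was the highest in 6 of 11 members, the same 6 genes, and in 21.1% of 1230 tested genes. The members between 4-fold and 8-fold were Zm00001d005766, Zm00001d021929 and Zm00001d046474, highest in control replicates 1, 3 and 4. Zm00001d050455 had 862, 687, 694 and 483 FPKM in the SLB libraries, against 1.35, 11.1, 3.42 and 2.56 FPKM in the controls. In Zm00001d050455 and Zm00001d017279 control replicate 2 stood far above the other controls. The other members of these 8 were Zm00001d029648, highest in control replicate 4, and Zm00001d017121, which had 386, 362, 323 and 272 FPKM in the SLB libraries, against 0.254, 1.06, 2.06 and 0.377 FPKM in the controls.

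Of the 11 genes left out of the group for an induced neighbour, 6 were also highest in control replicate 2, but it stood at least 1.5 times above every other control in only 3 and was listed at 0 in 2. The 3 were Zm00001d028815, Zm00001d028816 and Zm00001d040245. Zm00001d028815 had 849, 942, 785 and 723 FPKM in the SLB libraries, against 1.64, 6.24, 3.18 and 1.49 FPKM in the controls. The adjacent Zm00001d028816 had 2529, 2662, 2393 and 1641 FPKM in the SLB libraries, against 1.24, 7.61, 2.15 and 2.69 FPKM in the controls. Zm00001d040245 had 1228, 1293, 1189.9 and 808 FPKM in the SLB libraries, against 1.12, 4.33, 2.13 and 1.85 FPKM in the controls. Over the 49 genes above 0 in every control, control replicate 2 was the highest library in 17, replicate 4 in 15, replicate 3 in 13 and replicate 1 in 4. Over tested genes above 0 in every control, replicate 2 was the highest in 13.5% and replicate 3 in 49.8%. After median-ratio scaling control replicate 2 was still the highest for 17 of the 49 genes, against 17.3% of tested genes, while replicate 3 was the highest for 9, against 28.4% of tested genes.

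Of the 20 genes with control means of 10 to 50 FPKM, 11 spread more than 2-fold between controls and 5 more than 2-fold between SLB libraries. Zm00001d024702, Zm00001d018454 and Zm00001d003861 were among the more even ones. Zm00001d024702 averaged 625 ± 60.2 FPKM in SLB libraries and 23.3 ± 1.57 FPKM in controls (SD, n = 4 each), with the narrowest control spread of the group. Zm00001d043665 averaged 1237 ± 273 FPKM in SLB libraries and 17.1 ± 2.78 FPKM in controls (SD, n = 4 each). Zm00001d018454 averaged 415 ± 29.4 FPKM in SLB libraries and 13.6 ± 2.45 FPKM in controls (SD, n = 4 each). The ratios of the means were 26.8, 72.5 and 30.4. In Zm00001d043665 SLB replicate 4 was 0.642 times the mean of the others. Zm00001d003861 averaged 463 ± 59.5 FPKM in SLB libraries and 19.7 ± 3.66 FPKM in controls (SD, n = 4 each), and Zm00001d022181, just under this class, averaged 486 ± 80.3 FPKM in SLB libraries and 8.77 ± 1.27 FPKM in controls (SD, n = 4 each).

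Several genes of this class varied more in controls. Zm00001d034072 had 814, 627, 889 and 474 FPKM in the SLB libraries, against 26.3, 34.9, 47.3 and 60.3 FPKM in the controls. Zm00001d013245 had 1148, 929, 1214 and 846 FPKM in the SLB libraries, against 23.9, 35.6, 48.8 and 57.3 FPKM in the controls. In both, control replicate 4 was the highest and control replicate 1 the lowest, with ratios of 2.30 and 2.40 between them. Zm00001d005766 went the other way with 388, 259, 466 and 281 FPKM in the SLB libraries, against 31.8, 4.42, 10.9 and 15.1 FPKM in the controls, so that control replicate 1 exceeded the other controls by 2-fold or more. Zm00001d042022 had 1808, 1431, 1704 and 817 FPKM in the SLB libraries, against 61.4, 63.1, 26.1 and 32.7 FPKM in the controls, with control replicates 1 and 2 well above 3 and 4.

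Other genes of this class ranged from even to uneven in controls. The ratio of the highest to the lowest control was 1.38 in Zm00001d040519 and 2.56 in Zm00001d000294. Zm00001d009084, Zm00001d053554, Zm00001d016166, Zm00001d000294, Zm00001d040519, Zm00001d016664, Zm00001d009858, Zm00001d038218 and Zm00001d016130 had SLB means of 387 to 991 FPKM and control means of 12.4 to 33.6 FPKM. Zm00001d040519 had 769, 587, 648 and 338 FPKM in the SLB libraries, against 16.9, 13.7, 17.9 and 18.9 FPKM in the controls, a spread of 2.28-fold between SLB libraries beside even controls. Zm00001d053554 had 1256, 1041, 939 and 587 FPKM in the SLB libraries, against 24.3, 48.3, 36.6 and 25.1 FPKM in the controls. In both genes SLB replicate 4 was the lowest by a wide margin.

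Genes at 1 to 10 FPKM in controls had SLB means of 319 to 7922 FPKM. Zm00001d040468 averaged 752 ± 147 FPKM in SLB libraries and 2.77 ± 0.542 FPKM in controls (SD, n = 4 each), a ratio of 271. Zm00001d044683 averaged 497 ± 63.4 FPKM in SLB libraries and 2.95 ± 1.53 FPKM in controls (SD, n = 4 each). Zm00001d045210 averaged 469 ± 107 FPKM in SLB libraries and 3.40 ± 1.78 FPKM in controls (SD, n = 4 each). Each was abundant in every SLB library and at most 5.47 FPKM in every control. Zm00001d051163 and Zm00001d051001 had similar means in both groups, at 386 and 397 FPKM in SLB libraries and 8.67 and 7.72 FPKM in controls, but SLB replicate 4 was 0.596 times the mean of the others in Zm00001d051163 and 0.780 times in Zm00001d051001. Zm00001d021929, under 1 FPKM on average in controls, had 768, 496, 667 and 441 FPKM in the SLB libraries, against 0.389, 0.887, 1.78 and 0.706 FPKM in the controls.

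The levels of genes 1 and 2 identifier numbers away from the members are described here without a test. Identifier numbers are taken to follow gene order, which was not checked. At a distance of 1 the rule itself removed pairs with a log2 ratio of 3 or more. The 88 such neighbours in the table therefore had 0 of them. An SLB mean under 1 FPKM was found in 45 of the 88, beside 56.5% of all genes in the table. At a distance of 2, which the rule did not use, 4 of 87 neighbours (4.60%) had a log2 ratio of at least 3, where 2.39% of all genes in the table did. These were Zm00001d036541, Zm00001d049286, Zm00001d043663 and Zm00001d049956, beside Zm00001d036539, Zm00001d049288, Zm00001d043665 and Zm00001d049954.

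The 4 induced neighbours at a distance of 2 were far less abundant than the members beside them. Zm00001d043663 had 115, 108, 109 and 101 FPKM in the SLB libraries, against 0, 0.842, 0.883 and 0 FPKM in the controls. Zm00001d049286 had 68.1, 38.8, 67.0 and 33.5 FPKM in the SLB libraries, against 0.786, 0.678, 0.255 and 0.596 FPKM in the controls. In both genes every SLB library was above every control, as the log2 ratio by which they were found nearly requires. The SLB level was 108.7 FPKM for Zm00001d043663 beside 1237 FPKM for Zm00001d043665, and 51.9 FPKM for Zm00001d049286 beside 1866 FPKM for Zm00001d049288.

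One neighbour at a distance of 1 was itself very abundant. Zm00001d011080, next to Zm00001d011079, had 9370.4, 16503, 7627 and 7782 FPKM in SLB replicates 1 to 4, against 6055, 3724, 2969.8 and 3613 FPKM in control replicates 1 to 4. In both genes SLB replicate 2 was the highest SLB library and control replicate 1 the highest control. For Zm00001d011080 limma gave 1.31 ± 0.32 for SLB over control on the log2 scale (SE, adjusted p = 0.00361), on values as deposited. On these values 56% of tested genes were called higher and the median over tested genes was 0.69. With median-ratio scaling that median was -0.02, and no rescaled value is given for Zm00001d011080. The ratio of means of Zm00001d011080 was 2.52, beside 16.04 for Zm00001d011079. Zm00001d011081, 2 numbers from Zm00001d011079, had 503, 436, 465 and 416 FPKM in the SLB libraries, against 99.0, 83.4, 94.0 and 76.8 FPKM in the controls and no excess in SLB replicate 2. Whether fragments of Zm00001d011080 were also assigned to Zm00001d011079 was not tested, since the files hold neither sequences nor positions.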

How the data were processed

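Per the labels' protocols, a stranded Illumina kit was used for the mRNA of the 8 leaf samples. A single FPKM table of 44135 genes was deposited. Trimmomatic 0.32 and the build B73 RefGen_v4 are named in the submitters' processing notes. The aligner, quantifier and annotation are not given in the sources used. Columns were mapped to samples through the deposited column list, and 0 sample columns were unused. FPKM are relative to each library's mapped fragments, so very abundant genes can lower the values of other genes in a library. What part this had in the control levels was not tested. Depth is unknown and replicates are not pooled. No library was a copy of another: equal values made up at most 0.038% of the genes above 1 FPKM in a pair.

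Group means and ratios were computed on FPKM as deposited with Python 3.11.15, pandas 2.3.3 and numpy 2.4.6. The background fit was limma 3.58.1 in R 4.3.3 on log2(FPKM + 1), with a trend, two-sided, adjusted by Benjamini-Hochberg over the 19407 genes that reached 1 FPKM in 4 or more libraries; it was tested on simulated data. The 53 genes, lists and comparisons were chosen with earlier results of these data known. Values in every library were given for the 10 highest SLB means, the 5 highest and 5 lowest control means, the 3 widest and 3 narrowest SLB spreads, and 3 genes on either side of each limit; other genes shown were picked after their values were seen. Correlations over the 8 libraries are not given, since the groups lie apart. Function classes were not formed, because no identifier had a name. Alternatives were other pseudocounts, filters, variance models, scalings and limits, a replicate block, and leaving out each library. The replicate numbers were not treated as pairs.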

Additional observations from a re-analysis of the deposited data

Results flagged for a closer look

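Of 110 groups of 4 values checked, 10 had 1 library far from the other 3, where chance flags about 1 in 20 groups; the values are not independent. In SLB libraries, Zm00001d042143 had 5044 FPKM in replicate 4, while the others had 8577 to 9046 FPKM. Zm00001d024839 had 189 FPKM in SLB replicate 4, while the others had 456 to 484 FPKM. Zm00001d046474 had 465.5 FPKM in SLB replicate 3, while the others had 600.5 to 620.7 FPKM.

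In controls, the same gene Zm00001d046474 had 3.32 FPKM in replicate 3, while the others had 13.3 to 14.5 FPKM. Zm00001d043988 had 95.4 FPKM in control replicate 2, while the others had 63.9 to 66.5 FPKM. Zm00001d051001 had 11.2 FPKM in control replicate 1, while the others had 6.32 to 6.86 FPKM. Zm00001d029648 had 0.326 FPKM in control replicate 4, while the others had 0.039 to 0.072 FPKM. In 3 further genes 1 control stood above 0 and the others were listed at 0, where any value above 0 is flagged: 0.057 FPKM of Zm00001d018064 and 0.402 FPKM of Zm00001d014134 in control replicate 1, and 0.078 FPKM of Zm00001d020702 in control replicate 3.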

How the results depend on the processing

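The number of genes meeting the rule depended on scaling and on the SLB limit. It was 53 as deposited, 34 with median-ratio scaling (32 of them among the 53), 83 with quantile normalization (52 shared), 112 with equal totals (45 shared) and 31 with an SLB mean of at least 500 FPKM. Leaving out 1 library gave 49 to 58 genes, with 58 without SLB replicate 4. The share of summed FPKM in SLB libraries was 9.68% to 11.2%, and the median SLB spread 1.29 to 1.61, without 1 library. The count of genes above 0 in all controls was 49 to 50 without 1 library, and 40 were at 1 FPKM or more. All tested genes gave 15636 calls, 15142 to 15780 without 1 library and 15617 with the replicate number as a replicate block. Deviations from group means correlated at 0.0485, 0.0152, 0.126 and 0.112 between libraries of the same number; 2 of the 4 missed the 0.1 required of each, so the numbers were not taken as pairs. Higher genes were 69.5% of calls as deposited, 49.7% with median-ratio scaling, 55.4% with quantiles equalised and 86.8% with totals equalised. The 53 genes kept direction and call in 689 of 689 values, a count the choice of genes favours. Function classes could not be formed, so none of their values was computed. Depth is unknown, so control levels under 1 FPKM carry an error that FPKM do not show.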
